A study of Mus musculus with 24 samples.

Results

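The keratin family described here comprised 10 genes: Krt5, Krt14, Krt15, Krt1, Krt10, Krt4, Krt13, Krt6a, Krt6b and Krt25. Members were the probe sets whose platform annotation named 1 of these symbols, and where a gene had several probe sets its brightest probe set, on average across the 24 arrays, gave its value. They were 10 of the 18193 genes on the array with a probe set of a single symbol, and the array held 38 further keratin genes. All 10 were among the 12811 genes tested, those above their array's median in at least 3 of 24 arrays. Krt6b passed that filter through 5 arrays and Krt25 through 6, that is through the groups in which they were high, so their presence among the tested genes carries no information on its own.

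Keratins are the intermediate filament proteins of epithelial cells, and each filament pairs a type I with a type II chain. Krt5 (type II) pairs with Krt14 or Krt15 (type I) in the basal layer of stratified epithelia, and keratinocytes that leave this layer switch to Krt1 with Krt10 in epidermis or to Krt4 with Krt13 in the moist lining of the mouth. Krt6a and Krt6b are type II keratins of hair follicles, oral papillae and stressed epidermis, and Krt25 is a type I keratin of the inner root sheath, the cell layer that guides a growing hair or whisker.

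Gene expression was measured on 24 Affymetrix arrays of jaw tissue from mouse embryos at embryonic day 14.5 (C57B6 strain), in 8 groups of 3. Mutant embryos came from Wnt1-Cre;Tgfbr2 fl/+ parents crossed with Tgfbr2 fl/fl parents and were identified by their cleft palate together with a skull vault defect. The mutant distal maxilla, proximal maxilla, distal mandible and proximal mandible were each set against the same piece of control littermates. Wnt1-Cre acts in neural crest cells, which give rise to most jaw connective tissue and bone, whereas the surface and oral epithelium that makes keratins does not derive from them. Every embryo of this cross inherits at least 1 floxed Tgfbr2 allele, controls included, and the labels do not say which controls carried Cre. They also do not say whether the 3 replicates of a group were separate embryos, litters or pools, so any p-value here reflects the array-to-array spread alone, and part of that spread may be technical.

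The mean of 5 mandible identity genes, centred on all arrays, was 0.58 to 1.18 in the 12 mandible arrays and −1.14 to −0.55 in the 12 maxilla arrays. A list of 5 maxilla identity genes did not separate the jaws: its mean was 0.23 to 0.59 in the proximal mandible arrays and −0.52 to −0.02 in the control maxilla arrays. The labels call the pieces bone, yet the defining epithelial genes Epcam (10.8 to 13.3 on the log2 scale) and Cdh1 (10.04 to 12.4) were above the array medians of 6.93 to 6.999 in every array. The targeted gene, Tgfbr2, averaged 12.3 to 12.4 in the mutant groups and 11.6 to 12.1 in the control groups, and since the deleted exon is not given, its probe set does not check the genotype. Several maxilla arrays were low in marker lists. The mean of 11 genes of the nasal lining was −1.46 and −1.20 in mutant proximal maxilla 1 and 2 and −0.54 in mutant distal maxilla 1, against 0.49 to 2.86 in the control maxilla arrays. The mean of 14 basal layer genes, none of them a keratin, was −1.42 in control proximal maxilla 1 and −0.88 in control proximal maxilla 2, the lowest of all 24 arrays. Control proximal mandible 2 was next at −0.87, so control proximal maxilla 2 did not stand apart in this list. Control proximal maxilla 3 was at −0.48. Maxilla results that rest on the 3 mutant arrays low in nasal genes are also given without them. The same was done for control proximal maxilla 1 and 2, although they are the larger part of their group. Leaving such arrays out can leave a group with 1 array, which the fit then assumes to vary as the other groups do, so those p-values are no replicate check of that group.

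The 250 bases upstream of the transcription start are shown for Krt5 and Krt14, which moved together over the arrays, and for Krt10 and Krt25, as members of the suprabasal epidermal and root sheath roles. They are from RefSeq, build GRCm38.p6, where 5 of the 10 members had a promoter entry, the fifth being Krt13, and all 4 lie on the minus strand. Capitals mark matches on either strand to TATAAA (the TATA box), TGANTCA (AP-1), GCCNNNGGC (AP-2) or TTGCNNAA (C/EBP).
Krt5: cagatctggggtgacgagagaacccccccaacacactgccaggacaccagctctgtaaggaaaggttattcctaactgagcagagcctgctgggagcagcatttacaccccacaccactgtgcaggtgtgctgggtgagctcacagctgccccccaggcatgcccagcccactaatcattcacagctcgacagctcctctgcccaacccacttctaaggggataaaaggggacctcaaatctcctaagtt
Krt14: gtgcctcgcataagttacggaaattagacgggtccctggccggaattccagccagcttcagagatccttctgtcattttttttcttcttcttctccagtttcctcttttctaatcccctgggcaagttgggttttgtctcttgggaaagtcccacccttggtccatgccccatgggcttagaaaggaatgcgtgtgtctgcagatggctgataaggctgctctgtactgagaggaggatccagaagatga
Krt10: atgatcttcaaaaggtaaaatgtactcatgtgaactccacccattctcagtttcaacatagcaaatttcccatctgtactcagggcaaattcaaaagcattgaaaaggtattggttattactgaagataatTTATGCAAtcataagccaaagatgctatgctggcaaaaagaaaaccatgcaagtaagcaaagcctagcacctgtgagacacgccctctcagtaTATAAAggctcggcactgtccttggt
Krt25: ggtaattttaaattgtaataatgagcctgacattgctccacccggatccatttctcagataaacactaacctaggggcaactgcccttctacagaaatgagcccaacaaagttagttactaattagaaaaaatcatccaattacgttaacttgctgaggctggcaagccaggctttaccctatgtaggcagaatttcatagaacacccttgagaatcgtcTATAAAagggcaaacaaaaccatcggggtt
The stretches are chr15:101712906-101713155 for Krt5, chr11:100206031-100206280 for Krt14, chr11:99389365-99389614 for Krt10 and chr11:99322952-99323201 for Krt25. Krt25 had TATAAA 30 bases upstream of the start and Krt10 had it 26 bases upstream, with a C/EBP match 119 bases upstream that did not overlap it. Krt5 and Krt14 held no exact match to any of the 4 motifs in this window, and near matches were not counted. Of 32851 promoters of the same length, 12.4% held TATAAA, 6.75% TGANTCA, 13.7% GCCNNNGGC and 9.56% TTGCNNAA. Krt1, Krt4, Krt6a, Krt6b and Krt15 are named only.

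The members lie in the 2 keratin clusters of the mouse genome. In the RefSeq annotation of that build the type I genes Krt10, Krt13, Krt14, Krt15 and Krt25 are on chromosome 11 and the type II genes Krt1, Krt4, Krt5, Krt6a and Krt6b on chromosome 15. Krt6b, Krt6a, Krt5 and Krt71 follow each other, as do Krt13 and Krt15, while Krt25 lies between Krt24 and Krt26. The neighbours Krt13 and Krt15 correlated at Pearson's r = 0.71 over the 24 arrays, Krt6a and Krt6b at r = 0.69 and Krt6a and Krt5 at r = 0.87, while Krt5 and Krt14, on different chromosomes, gave r = 0.96. These correlations share arrays and tissue composition and are given as a description.

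**Figure D1:**
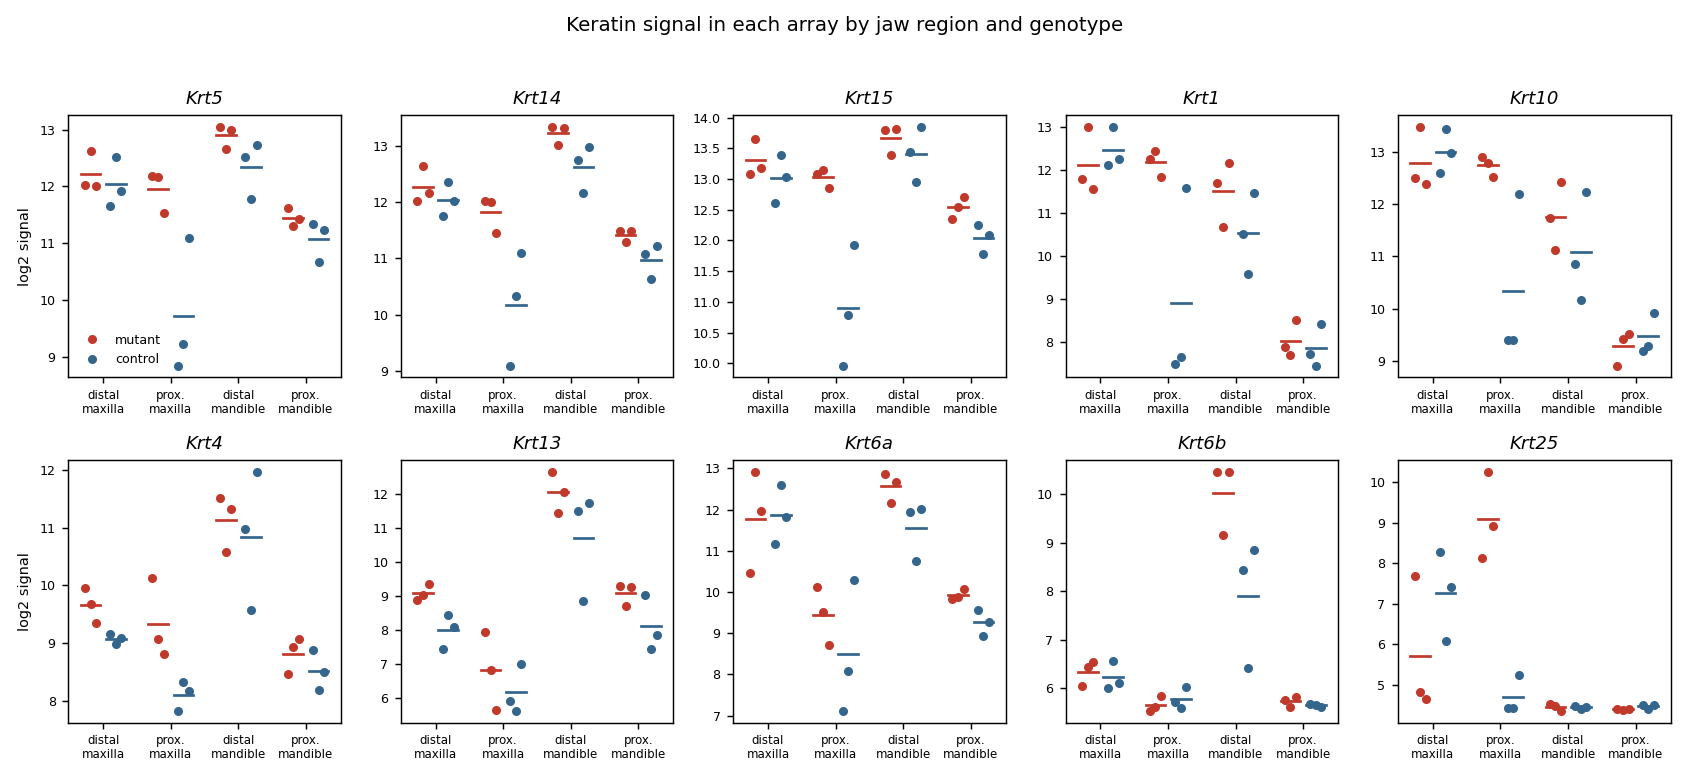
Log2 signal (vertical axis) of each of the 10 keratins in every array, by jaw region and genotype. Each point is 1 array, each line the mean of 3 arrays, with mutants in red left of controls in blue. Krt25 stood at 8.13 to 10.3 in the mutant proximal maxilla and 4.42 to 5.24 in control proximal maxilla, and Krt6b at 9.17 to 10.5 in the mutant distal mandible and 6.42 to 8.86 in control distal mandible.

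In the proximal maxilla, 7 of the 10 keratins were higher in mutants than in controls and none was lower. They were Krt5, Krt14 and Krt15 of the basal layer, Krt1 and Krt10 of the suprabasal epidermis, Krt4 of the mucosa and Krt25 of the inner root sheath. Over all genes tested, 12.2% were called higher and 11.1% lower in this comparison, which was also the genotype comparison with the most calls. The median difference of the members was 1.89 on the log2 scale against 0.01 over all genes. Differences were fitted with limma and called at a Benjamini-Hochberg adjusted p under 0.05 over the 12811 genes. Where overlap between groups is mentioned, the share of all genes without overlap was not counted. In pieces of tissue, a lower level from fewer cells of a type and one from less RNA per cell cannot be told apart.

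Krt5, the type II chain of basal cells, stood at 12.19, 12.16 and 11.54 in the mutant proximal maxilla arrays, against 8.84, 9.23 and 11.09 in control proximal maxilla. Every mutant array lay above every control array, but control 3 lay well above the other controls and close to the lowest mutant. The groups averaged 11.96 ± 0.37 and 9.72 ± 1.20 (SD, n = 3 each), a difference of 2.24 ± 0.42 (SE; 4.73-fold; limma adjusted p = 0.00126). Its partner Krt14 followed the same order, with 12.01, 11.996 and 11.44 in mutants and 9.10, 10.34 and 11.10 in controls. Krt14 was higher by 1.64 ± 0.35 (adjusted p = 0.00301). Krt15, which replaces Krt14 in part of the basal layer, gave 13.09, 13.14 and 12.85 in mutants against 9.96, 10.79 and 11.92 in controls. Krt15 differed by 2.13 ± 0.34 (4.39-fold; adjusted p = 0.000558), with control 1 again the lowest array.

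Among the suprabasal epidermal pair, Krt1 gave 12.25, 12.45 and 11.85 in the mutant proximal maxilla and 7.50, 7.64 and 11.58 in control proximal maxilla. Controls 1 and 2 were thus near the lowest level of Krt1 seen anywhere in the series, 7.45, while control 3 was close to the lowest mutant. The difference was 3.28 ± 0.78 (9.71-fold; adjusted p = 0.00577). Krt10, its type I partner, gave 12.91, 12.79 and 12.53 in mutants against 9.39, 9.41 and 12.20 in controls, a difference of 2.41 ± 0.61 (adjusted p = 0.00838). The same split of the controls was present in Krt10, and without control 1 alone its difference was 1.94 (adjusted p = 0.0523).

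The mucosal keratins gave less. Krt4 stood at 10.14, 9.06 and 8.81 in the mutant proximal maxilla and at 7.83, 8.32 and 8.16 in control proximal maxilla. The groups did not overlap, and Krt4 differed by 1.24 ± 0.44 (2.36-fold; adjusted p = 0.0477), just past the threshold. That call was lost without any 1 of mutants 1 and 2 and controls 1, 2 and 3, when the difference was 0.84 to 1.37 (adjusted p 0.0715 to 0.268). Krt13, the type I partner of Krt4, overlapped between the groups, with 7.95, 6.82 and 5.65 in mutants and 5.91, 5.62 and 6.99 in controls (0.63 ± 0.65, adjusted p = 0.538). Krt6a gave 10.12, 9.50 and 8.71 in mutants and 7.12, 8.09 and 10.30 in controls and did not pass (0.94 ± 0.66, adjusted p = 0.338). The highest Krt6a value of the 6 was that of control 3, and without it the difference was 1.84 (adjusted p = 0.0387). Krt6b was near background in all 6 arrays, at 5.54 to 5.84 in mutants and 5.58 to 6.02 in controls.

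Krt25 had the largest difference of the 10. It stood at 8.13, 10.26 and 8.93 in the mutant proximal maxilla, against 4.42, 4.44 and 5.24 in control proximal maxilla. The groups were far apart, and the control values were close to the level of all mandible arrays, 4.36 to 4.52, where differences are compressed by background. The groups averaged 9.11 ± 1.07 and 4.70 ± 0.47 (SD, n = 3 each), so Krt25 was higher by 4.41 ± 0.64 (21.3-fold; adjusted p = 0.000315). The call held in 19 of 19 alternative settings, with differences of 3.51 to 5.10.

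**Figure D2:**
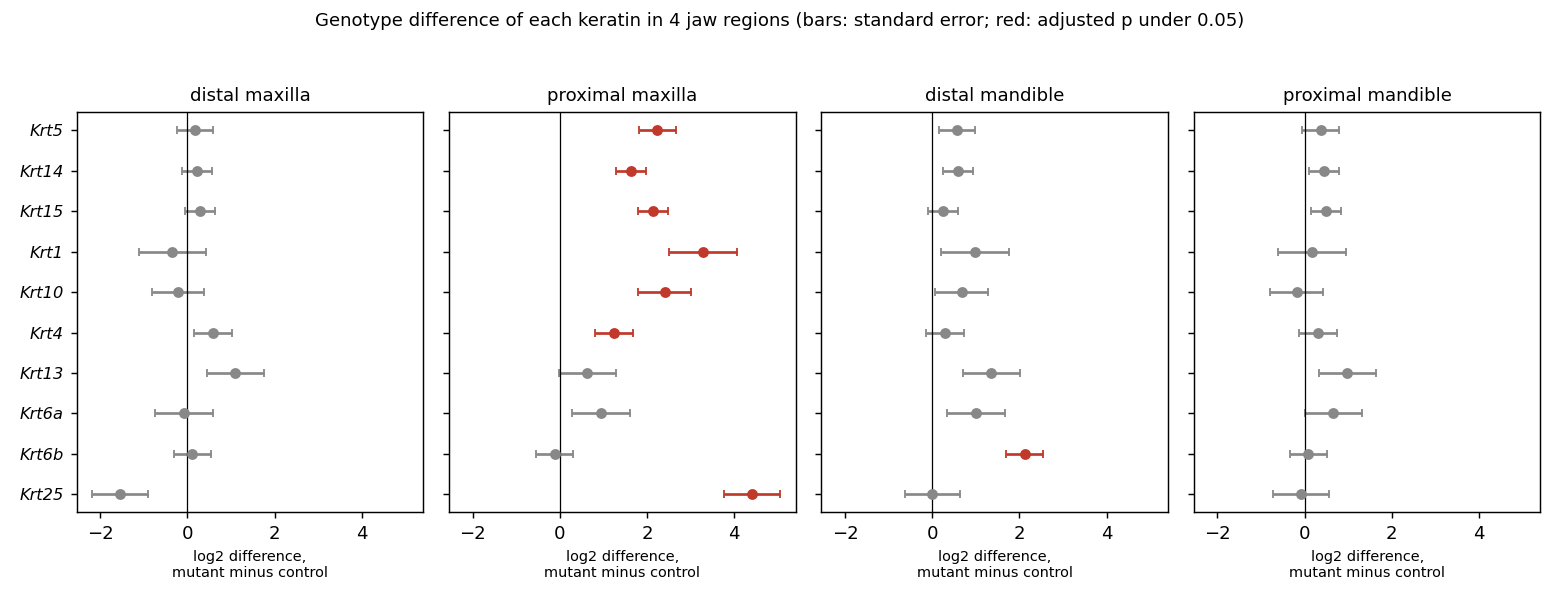
Difference in log2 signal, mutant minus control, of each keratin in the 4 jaw regions, with bars of 1 standard error from the limma fit and red points where the adjusted p was under 0.05. The 7 red points of the proximal maxilla ran from Krt4 at 1.24 to Krt25 at 4.41, Krt6b at 2.12 was the only red point of the distal mandible, and the other regions had none.

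These differences were smaller against control proximal maxilla 3 alone, the highest control in Krt5, Krt14, Krt15, Krt1, Krt10 and Krt25. Without control proximal maxilla 1 and 2, so against control 3 alone, the difference was 0.87 for Krt5 (adjusted p = 0.215), 0.72 for Krt14 (0.216), 1.10 for Krt15 (0.0745), 0.60 for Krt1 (0.677), 0.54 for Krt10 (0.689) and 1.18 for Krt4 (0.322), and 3.87 for Krt25 (adjusted p = 0.0416). With the mean of the 14 basal layer genes as a covariate, Krt5 differed by 0.69, Krt14 by 0.23, Krt15 by 0.77, Krt1 by 0.38, Krt10 by 0.12 and Krt4 by 0.19, all with adjusted p of 0.0627 or more, and Krt25 by 5.08 (adjusted p = 0.0184). Both settings were chosen after seeing the data. The basal list mean itself followed Krt5, Krt14 and Krt15 over the arrays (r = 0.92, 0.97 and 0.92) and Krt25 hardly (r = 0.11). Its values did not overlap between the mutant and control proximal maxilla. Smaller differences of the basal keratins were thus largely built into that fit, which cannot separate them from the list. Fitting only the 6 proximal maxilla arrays left Krt25 called (adjusted p = 0.0330) and the other 6 at adjusted p 0.0539 to 0.113. Without the 3 mutant maxilla arrays low in nasal genes, so with mutant 3 alone, Krt25 stood at 4.23 (adjusted p = 0.00165), Krt15 at 1.96 (0.0796) and Krt5 at 1.82 (0.184).

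Marker lists of the skin layers moved beside the keratins. Of 14 basal layer genes tested, 10 were higher in the mutant proximal maxilla and none lower (median 1.13), among them the desmosome genes Pkp1 (2.14, adjusted p = 0.00312) and Dsc3 (1.88, adjusted p = 0.000605), the adhesion gene Perp (1.55) and the hemidesmosome collagen Col17a1 (1.32). Of 23 suprabasal and cornification genes, 10 were higher and none lower (median 0.84), led by Dmkn (3.93), Krtdap (3.86), Them5 (3.71) and the desmoglein Dsg1a (3.35). General epithelial genes went the other way: 9 of 18 were lower and none higher (median −0.81), with the tight junction genes Cldn7 (−2.73), Cldn3 (−2.06) and Cldn6 (−1.70) and the protease Prss8 (−1.40) furthest down. Nasal lining genes were lower for 9 of 11 (median −2.55) and dermal genes higher for 9 of 10 (median 1.38). Neuron genes were lower for 10 of 12 (median −2.84), cartilage genes lower for 7 of 12 (median −2.70) and skeletal muscle genes higher for 8 of 13 (median 2.53). The list mean of general epithelial genes was −0.34 to 0.89 in mutants and 0.93 to 1.07 in controls, and that of nasal genes −1.46 to 2.21 in mutants and 2.73 to 2.86 in controls. With mutant 3 as the only mutant, the basal list had 0 calls (7 of 14 at an unadjusted p under 0.05 by limma; median 0.89), the suprabasal list 0 (8 of 23; median 0.64), the general epithelial list 0 (1 of 18; median −0.10), the nasal list 0 (3 of 11; median −0.64) and the dermal list 5 higher (median 0.98). The neuron list had 0 calls (1 of 12 unadjusted; median −0.80), the cartilage list 0 (0 of 12; median −0.45) and the muscle list 3 higher (median 1.42). Against control 3 as the only control, the basal list had 1 gene higher (median 0.67), the suprabasal list 0 (2 of 23 unadjusted; median 0.44), the general epithelial list 0 (8 of 18; median −0.84), the nasal list 0 (8 of 11; median −2.84) and the dermal list 2 higher (median 1.35). The neuron list had 1 gene lower (median −2.81), the cartilage list 0 calls (8 of 12 unadjusted; median −3.09) and the muscle list 0 (4 of 13; median 1.69). Beyond these settings, the part of tissue composition in the keratin differences was not tested.

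**Figure D3:**
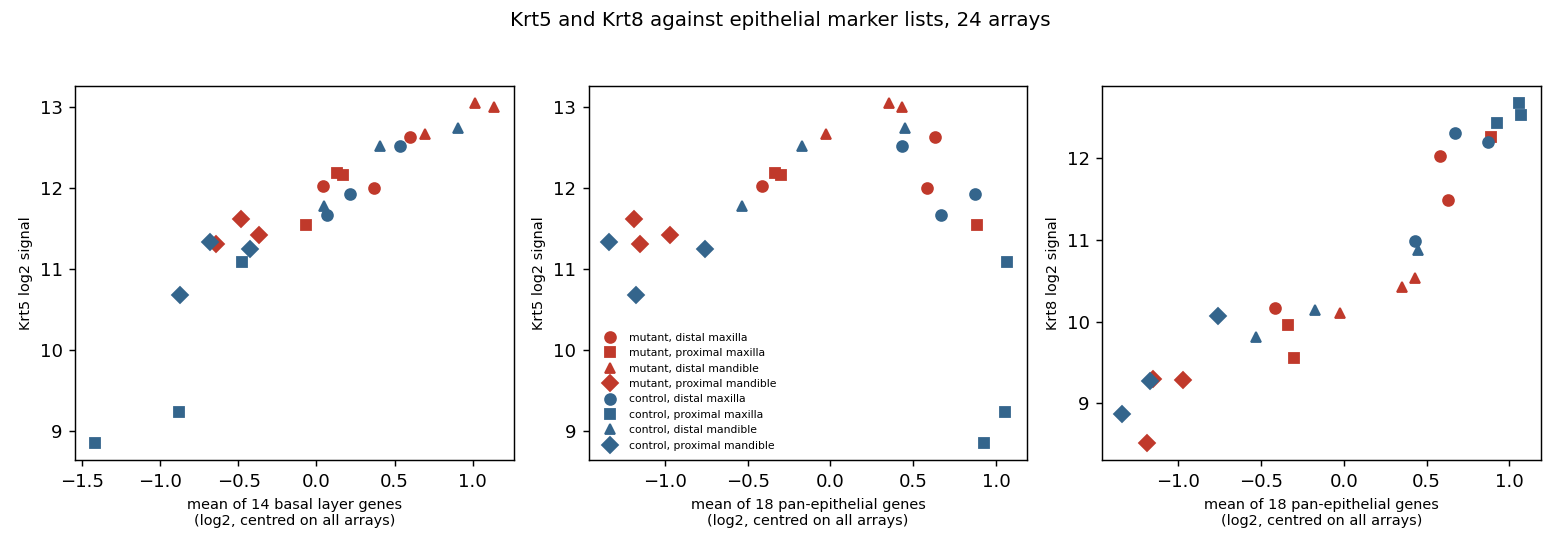
Krt5 log2 signal against the mean of 14 basal layer genes (left) and of 18 general epithelial genes (middle), and Krt8 against the general list (right), with list means on the log2 scale centred on all arrays. Each point is 1 of 24 arrays, coloured by genotype and shaped by region. Over all 24 arrays Krt5 followed the basal list (r = 0.92) and not the general list (r = −0.05). The 3 control proximal maxilla arrays lay low in Krt5 and high in the general list. Within the control mandible both moved together. The general list was −1.34 to −0.76 proximally and −0.53 to 0.45 distally, and Krt5 was 10.67 to 11.33 and 11.77 to 12.73.

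Several other inner root sheath genes were also higher in the mutant proximal maxilla. Tchh, which encodes trichohyalin, the matrix protein of that sheath, stood at 7.46, 8.21 and 6.91 in the mutant proximal maxilla and at 4.07, 3.99 and 4.59 in control proximal maxilla (3.31 ± 0.51, adjusted p = 0.000421). Of the type II root sheath keratins, Krt73 gave 8.32, 10.12 and 8.92 in mutants and 5.90, 6.08 and 7.83 in controls (2.52, adjusted p = 0.00137). Krt71 gave 7.97, 9.59 and 8.10 in mutants and 6.36, 6.41 and 6.64 in controls (2.08, adjusted p = 0.000740). In both, as in Krt25, mutant 2 was the highest array. The control distal maxilla also had these genes, with means of 9.10 for Krt73, 7.31 for Krt71 and 6.15 for Tchh. Krt27, a type I root sheath keratin, gave 7.27, 8.65 and 7.39 in mutants and 5.67, 5.41 and 6.10 in controls. Krt27 passed the filter only through the 3 mutant proximal maxilla arrays, so its presence among the tested genes carries no information on its own. Krt28 exceeded its array median in only 2 arrays and was not tested, with 5.93, 8.40 and 7.04 in mutants against 4.50, 4.48 and 4.50 in controls. Krt26 (4.598 to 5.48) and Krt72 (5.10 to 5.57), further root sheath keratins, were below the array median in all 24 arrays and were not tested. Without the 3 mutant maxilla arrays low in nasal genes, Tchh differed by 2.70, Krt71 by 1.63, Krt27 by 1.66 and Krt73 by 2.32. Without controls 1 and 2, Tchh differed by 2.94, Krt71 by 1.91, Krt27 by 1.67 and Krt73 by 1.29. Each of these settings left 1 array in a group, so only the sizes are given. Follicle genes as a whole were mixed: of 12 tested, 4 were higher (Tchh, Shh 1.88, the placode gene Sostdc1 1.28 and Lef1 1.09) and 3 lower (Lhx2 −2.77, Crym −1.68, Sox21 −0.78).

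**Figure D4:**
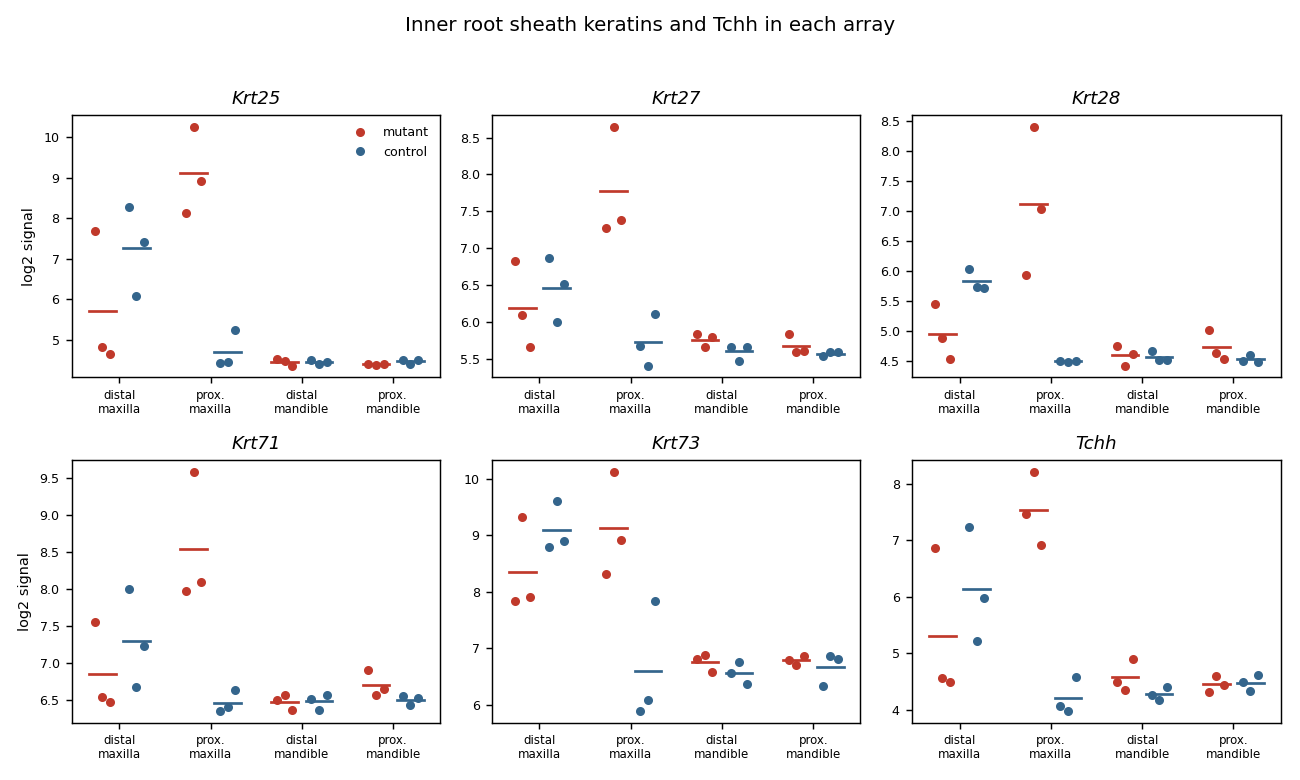
Log2 signal of Krt25, 4 other inner root sheath keratins and Tchh in each array, by region and genotype, with lines at group means. The mutant proximal maxilla was highest in Krt25 (mean 9.11), Krt27 (7.77), Krt28 (7.12), Krt71 (8.55) and Tchh (7.53). In Krt73 it averaged 9.12, level with control distal maxilla at 9.10. Mandible arrays of both genotypes stayed at the low end of each panel.

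Of the 38 other keratins on the array, 23 were tested. In the proximal maxilla 8 were higher in mutants, where 12.2% of all genes were. These included the epidermal keratins Krt79 (2.83 ± 0.70, adjusted p = 0.00758) and Krt77 (2.70 ± 0.57, adjusted p = 0.00295) beside Krt73 and Krt71. Krt27 was among the 23 only through the mutant proximal maxilla arrays, so the filter had a part in these counts. Krt8 and Krt18, the keratin pair of simple epithelia, were the 2 that were lower, a share below the 11.1% of all genes called lower. Krt8 gave 9.96, 9.55 and 12.26 in the mutant proximal maxilla and 12.43, 12.67 and 12.53 in control proximal maxilla (−1.95 ± 0.57, adjusted p = 0.0203). Krt18 gave 9.29, 9.16 and 11.89 in mutants and 12.07, 12.27 and 11.99 in controls (−1.997 ± 0.56, adjusted p = 0.0159). In both, mutant 3 was close to the controls, and mutants 1 and 2, the arrays low in nasal genes, were well below them. Without the 3 mutant maxilla arrays low in nasal genes, Krt8 differed by −0.29 (adjusted p = 0.894), Krt18 by −0.22 (0.902), Krt79 by 3.01 (0.149) and Krt77 by 2.08 (0.187). Without controls 1 and 2, Krt8 differed by −1.94 (adjusted p = 0.215), Krt18 by −1.88 (0.218), Krt79 by 0.82 (0.609) and Krt77 by 1.45 (0.274).

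In the distal mandible, 1 of the 10 keratins was higher in mutants, Krt6b, and none was lower, where 0.273% of all genes were called higher. Krt6b stood at 10.46, 9.17 and 10.46 in the mutant distal mandible and at 8.43, 6.42 and 8.86 in control distal mandible. The groups did not overlap, and control 2 was well below the other controls. Their means were 10.03 ± 0.75 and 7.90 ± 1.30 (SD, n = 3 each), a difference of 2.12 ± 0.43 (4.36-fold; adjusted p = 0.0220). Without mutant 1 or mutant 3 the difference was 1.91 (adjusted p 0.124 and 0.132), and without control 2 it was 1.38 and still past the threshold (adjusted p = 0.0437). With the replicate number as a block the adjusted p was 0.0101, with genotype by number as a random block it was 0.0565, and in a fit of these 6 arrays alone it was 0.204.

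The other 9 keratins had positive differences in the distal mandible but did not pass. Krt13 was the next largest, with 12.65, 11.43 and 12.05 in mutants and 11.50, 8.85 and 11.72 in controls (1.35 ± 0.65, adjusted p = 0.406). Without control 2, the lowest array, the difference was 0.43. Krt6a gave 12.85, 12.16 and 12.67 in mutants and 11.94, 10.74 and 12.002 in controls (1.00 ± 0.66, adjusted p = 0.572). Krt14 gave 13.34, 13.02 and 13.32 in mutants and 12.75, 12.16 and 12.97 in controls (0.60 ± 0.35, adjusted p = 0.504). Krt1 differed by 0.99 (adjusted p = 0.646), Krt10 by 0.68, Krt5 by 0.56, Krt4 by 0.30, Krt15 by 0.26 and Krt25, at background in all 6 arrays, by 0.01. Sprr3, a cornified envelope gene expressed in oral epithelium, was the 1 of 23 suprabasal genes called (2.24 ± 0.50, adjusted p = 0.0433), with 10.74, 9.43 and 10.80 in mutants and 8.66, 6.85 and 8.74 in controls. No basal layer gene was called by limma (4 of 14 had an unadjusted p under 0.05; median 0.53), but the list mean moved the same way, at 0.70 to 1.13 in mutants and 0.05 to 0.91 in controls, with control 2 the lowest. With that list mean, which Krt6b itself followed over the arrays (r = 0.76), as a covariate Krt6b differed by 1.51 (adjusted p = 0.126). 

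In the distal maxilla, none of the 10 keratins passed by limma (1 had an unadjusted p under 0.05), where 0.195% of all genes were called in either direction. Krt5, Krt14 and Krt15 differed by 0.18 ± 0.42, 0.23 ± 0.35 and 0.29 ± 0.34, so the basal keratins lay within the spread of the arrays. Krt1 (−0.34 ± 0.78) and Krt10 (−0.21 ± 0.61) did too. Krt13 gave 8.89, 9.04 and 9.34 in the mutant distal maxilla and 7.44, 8.44 and 8.08 in control distal maxilla (1.10 ± 0.65, adjusted p = 0.666). Krt4 gave 9.96, 9.67 and 9.35 in mutants and 9.15, 8.99 and 9.08 in controls (0.59 ± 0.44, adjusted p = 0.754). Krt6a differed by −0.08 and Krt6b by 0.11. Krt25 was the member with the unadjusted p under 0.05: it gave 7.68, 4.82 and 4.64 in mutants and 8.28, 6.07 and 7.41 in controls (−1.54 ± 0.64, adjusted p = 0.462). Mutants 2 and 3 were near background while mutant 1, the array low in nasal genes, was not. Without the 3 arrays low in nasal genes Krt25 stood at −2.53 (adjusted p = 0.0238, and 0.0727 where only mutant 1 was left out) and with array weights at −2.44 (adjusted p = 0.00682).

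In the proximal mandible, none of the 10 passed by limma (none had an unadjusted p under 0.05), against 4.34% of all genes called in either direction, and 8 of the 10 differences were positive (median 0.33, against −0.04 over all genes). Krt15 gave 12.35, 12.55 and 12.71 in the mutant proximal mandible and 12.25, 11.79 and 12.08 in control proximal mandible (0.50 ± 0.34, adjusted p = 0.460). Krt14 gave 11.48, 11.29 and 11.49 in mutants and 11.08, 10.63 and 11.23 in controls (0.44 ± 0.35, adjusted p = 0.529). Krt6a stood at 9.82 to 10.1 in mutants and 8.94 to 9.57 in controls (0.66 ± 0.66, adjusted p = 0.640). Krt13 had the largest difference (0.98 ± 0.65, adjusted p = 0.441), with 9.28, 8.71 and 9.26 in mutants and 9.01, 7.44 and 7.86 in controls. Krt5 differed by 0.37, Krt4 by 0.30, Krt1 by 0.17, Krt6b by 0.08, Krt25 by −0.08 and Krt10 by −0.18.

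Interaction contrasts asked whether the genotype difference itself differed between regions. The difference of Krt25 was larger in the proximal than in the distal maxilla by 5.95 ± 0.90 (adjusted p = 0.0406), and Krt25 was the 1 gene of 12811 called higher in this contrast (0.00781%). Without any 1 of 6 arrays (mutant distal maxilla 2 or 3, control distal maxilla 1 or 3, mutant proximal maxilla 2 or control proximal maxilla 1) it stood at 5.38 to 5.88 with adjusted p of 0.0752 to 0.197, and with the replicate number as a block the adjusted p was 0.0602. Against the proximal mandible, 3 keratins had a larger genotype difference in the proximal maxilla, where 6.24% of all genes were called higher. They were Krt25 (4.49 ± 0.90, adjusted p = 0.0110), Krt15 (1.64 ± 0.48, adjusted p = 0.0397) and Krt5 (1.87 ± 0.59, adjusted p = 0.0490). Krt10 (2.59, adjusted p = 0.0602) and Krt1 (3.11, adjusted p = 0.0750) missed, and both passed with the replicate number as a block (0.0328 and 0.0498). Krt25 held without any 1 array (3.91 to 4.98), but the calls of Krt15 and Krt5 were each lost without any 1 of 9 of the 12 arrays (1.17 to 1.72 for Krt15 and 1.44 to 1.96 for Krt5). With control 3 as the only control of the proximal maxilla, all 3 missed, Krt25 at 3.95 (adjusted p = 0.129), Krt15 at 0.61 and Krt5 at 0.51.

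For Krt6b, the genotype difference in the distal mandible exceeded that in the distal maxilla by 2.01 ± 0.60 (adjusted p = 0.408) and that in the proximal mandible by 2.04 ± 0.60 (adjusted p = 0.408), so a difference between regions was not called. No other member passed these contrasts. By limma 0.0156% of all genes were called against the distal maxilla and 0% against the proximal mandible, where 1025 genes had an unadjusted p under 0.05. In both contrasts Krt6b was the 1 member with an unadjusted p under 0.05. Outside the distal mandible Krt6b was near background in all arrays (5.54 to 6.55), which compresses any difference there.

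Between the ends of the control maxilla, 7 of 10 keratins were higher in distal than in proximal pieces and none lower, against 5.09% of all genes called higher. Krt1 was higher by 3.56 ± 0.78 (adjusted p = 0.0109), Krt6a by 3.36 ± 0.66 (0.00710), Krt10 by 2.67 ± 0.61 (0.0133), Krt25 by 2.56 ± 0.64 (0.0202), Krt5 by 2.31 ± 0.42 (0.00453), Krt15 by 2.13 ± 0.34 (0.00239) and Krt14 by 1.86 ± 0.35 (0.00572). Krt6a, for example, stood at 11.17, 12.60 and 11.82 in control distal maxilla and 7.12, 8.09 and 10.30 in control proximal maxilla, without overlap. Krt13 (1.82, adjusted p = 0.0956), Krt4 (0.97, adjusted p = 0.193) and Krt6b (0.45, adjusted p = 0.623) did not pass, and with genotype by number as a random block Krt13 did (adjusted p = 0.0388). The skin lists moved along: 12 of 14 basal layer genes (median 1.24) and 19 of 23 suprabasal genes (median 2.41) were higher in distal pieces, while none of 18 general epithelial genes was called by limma (4 at an unadjusted p under 0.05; median −0.30). With control proximal maxilla 3 as the only proximal array, 1 of 14 basal genes was called higher (median 0.75) and none of 23 suprabasal genes (2 unadjusted; median 1.07).

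This comparison uses the same control proximal maxilla arrays as the genotype comparison of that region, so their values are not independent. With proximal control 3 as the only proximal array none of the 7 passed, with differences of 0.95 for Krt5, 0.95 for Krt14, 1.10 for Krt15, 0.88 for Krt1, 0.80 for Krt10, 1.57 for Krt6a and 2.02 for Krt25. Leaving out only control distal maxilla 2 or control proximal maxilla 1 ended the calls of Krt1 (2.86 to 3.29), Krt10 (2.20 to 2.45, also without control proximal maxilla 2) and Krt6a (2.67 to 2.99). Leaving out control distal maxilla 1 or 3, or control proximal maxilla 1 or 2, ended that of Krt25 (2.05 to 2.48).

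Between the ends of the control mandible, 7 of 10 keratins were again higher distally, against 2.44% of all genes. Both mucosal and both inducible keratins were among the called members: Krt4 differed by 2.32 ± 0.44 (adjusted p = 0.00350), Krt6b by 2.25 ± 0.43 (0.00370), Krt13 by 2.59 ± 0.65 (0.0245) and Krt6a by 2.30 ± 0.66 (0.0468). Krt4 gave 10.99, 9.56 and 11.97 in control distal mandible and 8.88, 8.19 and 8.49 in control proximal mandible. Krt13 gave 11.50, 8.85 and 11.72 in distal pieces and 9.01, 7.44 and 7.86 in proximal ones, with distal control 2 below proximal control 1. Krt14 (1.65, adjusted p = 0.00800), Krt15 (1.37, adjusted p = 0.0233) and Krt1 (2.67, adjusted p = 0.0493) also passed. Krt5 (1.26, adjusted p = 0.0899) and Krt10 (1.61, adjusted p = 0.146) missed, and both passed with genotype by number as a random block (0.0357 and 0.0463). Krt25 was at background at both ends (−0.02). Calls lost without any 1 of 5 arrays, all but control distal mandible 2, were those of Krt15 (1.15 to 1.47), Krt1 (2.20 to 2.95) and Krt6a (2.08 to 2.45), while that of Krt13 was lost without any 1 of 4 (2.07 to 2.47) and that of Krt14 without control distal mandible 3 (1.47, adjusted p = 0.0509). General epithelial genes moved too, 8 of 18 higher (median 1.03), with 12 of 14 basal genes (median 1.25) and 6 of 23 suprabasal genes (median 1.29). With the general epithelial list mean as a covariate, no keratin passed.

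Between the jaws, the control distal mandible had more Krt13, Krt4 and Krt6b and less Krt25 than the control distal maxilla. Krt13 stood at 11.50, 8.85 and 11.72 in control distal mandible and 7.44, 8.44 and 8.08 in control distal maxilla (2.70 ± 0.65, adjusted p = 0.0169). Krt4 was higher by 1.77 ± 0.44 (adjusted p = 0.0186) and Krt6b by 1.68 ± 0.43 (adjusted p = 0.0216), so 3 of 10 were called higher where 3.08% of all genes were. Krt25 was the 1 of 10 called lower (5.73% of all genes), with 4.49, 4.40 and 4.45 in control distal mandible and 8.28, 6.07 and 7.41 in control distal maxilla (−2.81 ± 0.64, adjusted p = 0.0120). The epidermal pair did not pass, Krt1 at −1.94 (adjusted p = 0.126) and Krt10 at −1.93 (adjusted p = 0.0544). Krt5 (0.30), Krt14 (0.59), Krt15 (0.39) and Krt6a (−0.30) did not pass either. Each of the 4 calls was lost without control distal maxilla 1 or 3, and those of Krt13, Krt4 and Krt6b also without control distal mandible 1 or 3. Without them the differences were 2.19 to 2.75 for Krt13, 1.20 to 1.81 for Krt4, 1.20 to 1.62 for Krt6b and −2.73 to −2.30 for Krt25.

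Proximally, 3 keratins were higher in the control mandible than in the control maxilla, and 16.6% of all genes were. They were Krt13 (1.93 ± 0.65, adjusted p = 0.0288), Krt5 (1.36 ± 0.42, adjusted p = 0.0164) and Krt15 (1.15 ± 0.34, adjusted p = 0.0143). Krt14 (0.80, adjusted p = 0.0843) missed and passed with genotype by number as a random block (adjusted p = 0.0439). Krt6a (0.76), Krt4 (0.42), Krt6b (−0.12), Krt25 (−0.23), Krt10 (−0.87) and Krt1 (−1.05) did not pass. Against control proximal maxilla 3 as the only maxilla array, Krt5 stood at −0.01, Krt15 at 0.12 and Krt13 at 1.11, and Krt1 (−3.72, adjusted p = 0.00308) and Krt10 (−2.74, adjusted p = 0.00968) were then past the threshold and lower in the mandible. Calls were also lost without single arrays: the call of Krt5 was lost without control proximal maxilla 1 or 2 or control proximal mandible 1 or 3 (0.92 to 1.28), that of Krt15 without the first of either group (0.68 to 1.04) and that of Krt13 without control proximal mandible 1 or control proximal maxilla 1 or 2 (1.47 to 1.80). All 18 general epithelial genes were lower in the control proximal mandible (median −1.90), and 18 of 18 without control proximal maxilla 1 and 2. Of the 23 other keratins tested, 5 were lower, against 17% of all genes, among them Krt8 (−3.14), Krt18 (−2.94), Krt23 (−2.78) and Krt19 (−1.75), and 2 were higher, Krt17 (1.44) and Krt33b (0.52). Without those 2 maxilla arrays, 5 were lower and none higher.

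The mutant distal mandible had the highest mean for all members but Krt1, Krt10 and Krt25. For Krt5, Krt14 and Krt15 it ran from the mutant distal mandible (12.90 for Krt5, 13.23 for Krt14 and 13.67 for Krt15) down to control proximal maxilla, and for Krt5 each group overlapped the next. For Krt1 and Krt10 the control distal maxilla was highest (12.47 and 13.005) and the proximal mandible of both genotypes lowest (7.86 to 8.03 for Krt1 and 9.28 to 9.46 for Krt10). Krt4, Krt13, Krt6a and Krt6b were also highest in the mutant distal mandible. Like the basal keratins, Krt4, Krt13 and Krt6a were lowest in control proximal maxilla. Krt13 spanned the widest range of all members, 7.02 on the log2 scale. For Krt6b only the mutant distal mandible was separated from the group below it. For Krt25 the mutant proximal maxilla (9.11) was followed by control distal maxilla (7.26), whose arrays overlapped it, and by mutant distal maxilla (5.72).

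Over the 24 arrays Krt5 correlated with Krt15 at Pearson's r = 0.98, and after removing group means at 0.93. Krt1 with Krt10 gave 0.98 and 0.96, and Krt4 with Krt13 gave 0.86 and 0.77. Krt6a and Krt6b gave 0.69 and 0.48. Across roles, Krt5 with Krt1 gave 0.70 and 0.93, Krt5 with Krt6a 0.87 and 0.90, and Krt1 with Krt13 0.22 and 0.55, so within groups the roles were not set apart by these values. Krt25 with Krt5 gave 0.15 and −0.03. Krt25 was near background in all mandible arrays, so these values cannot show whether Krt25 and Krt5 are related. Of the tested genes that are not keratins, those most like Krt5 and Krt15 were the same 3 in the same order, Pkp1 (0.98 with each), Serpinb5 and Dsg1a, and for Krt14 they were the laminin chain Lama3 (0.97), Dsc3 and Serpinb5. For Krt1 they were Sdr16c6 (0.98), Krtdap and Dmkn, and for Krt10 Sdr16c6 (0.99), Asprv1, a protease of the cornifying layer, and Dsc1. For Krt4 the nearest was Lpar6 (0.93), for Krt13 Tmprss11a (0.95), for Krt6a Sh3rf2 (0.93), for Krt6b Sprr3 (0.96) and for Krt25 Tchh (0.97), Prr9 (0.94) and S100a3 (0.91). These likenesses rest on the same 24 arrays and are descriptive.

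Several members were measured by more than 1 probe set, 17 in all for the 10 genes. The second sets of Krt14 and Krt4 followed the first at r = 1.00 in each, and gave 1.76 and 1.17 in the proximal maxilla. The other Krt6a sets (r = 0.98 each) gave 0.53 and 0.59 there. The 2 dimmer Krt13 sets, at 0.92 and 0.91, gave 1.40 and 1.52 in the distal mandible beside 1.35 for the main set, and the dimmest set of Krt14 gave 0.41 in the proximal maxilla. A further probe set annotated to both Krt17 and Krt14 was assigned to neither. Krt6a and Krt6b are close paralogs, and cross-hybridisation between their probe sets was not tested.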

How the data were processed

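RNA was measured on 24 single-channel Affymetrix arrays from 5 µg of total RNA per sample, per the labels' protocols. The authors deposited log2 values, 1 for each probe set on each array. The submitters' processing notes name RMA and Partek 6.6, with settings and genome build not given in the sources used here. The log2 scale was read from the deposited values, 3.44 to 14.8, with array medians of 6.93 to 6.999. Background correction compresses differences of dim probe sets, and the number of arrays limits precision.

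Of 45101 probe sets, 34945 had 1 gene symbol in the platform annotation, 932 several and 9160 none, and 64 were controls. The brightest probe set stood for each of 18193 genes, and the 12811 above the array median in at least 3 arrays were tested. limma 3.58.1 (lmFit, eBayes; R 4.3.3) fitted 1 mean per group over 24 arrays, two-sided, in 12 comparisons, each adjusted by Benjamini-Hochberg over all genes. The code was tested on simulated data. The members and the 12 marker lists were chosen with earlier results of these data known. All members were described, and of other keratins and lists at most 4 genes each way past the threshold per comparison, the largest; genes without a call and per-array values shown beside them were chosen after their values were seen.

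Groups share replicate numbers. Deviations of same-numbered arrays correlated above 0.1 in every pair for the distal mandible (0.15 to 0.51), the proximal mandible (0.30 to 0.32), the ends of the control maxilla (0.11 to 0.50) and mandible (0.46 to 0.54) and the control jaws proximally (0.20 to 0.36), not in the distal maxilla, the proximal maxilla or the control jaws distally, where the labels give only a shared number. Alternatives covered the filter, probe sets, centring, array weights, the samples fitted, blocks, marker covariates and left-out arrays. Leaving arrays out for marker lists and other keratins was chosen after seeing the data.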

Additional observations from a re-analysis of the deposited data

Results flagged for a closer look

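The genotype differences of 3 keratins passed the threshold of an interaction test between regions in the limma fit, and most of these calls depended on single arrays. For Krt25 the mutant minus control difference in the proximal maxilla exceeded that in the distal maxilla by 5.95 (adjusted p = 0.0406) and that in the proximal mandible by 4.49 (adjusted p = 0.0110). For Krt15 it exceeded that in the proximal mandible by 1.64 (adjusted p = 0.0397) and for Krt5 by 1.87 (adjusted p = 0.0490). Against the proximal mandible 6.24% of all genes were called higher, and the calls of Krt15 and Krt5 were each lost without any 1 of 9 arrays. The call of Krt25 against the distal maxilla was lost without any 1 of 6 arrays. In a limma fit of only the arrays compared its adjusted p was 0.551. In these contrasts the control proximal maxilla arrays 1 and 2 had 8.84 and 9.23 for Krt5, against 10.67 to 11.33 in the control proximal mandible.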

How the results depend on the processing

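Of 2476 member values under alternatives, 2219 kept their direction and side of the threshold, apart from 108 sign changes among values past no threshold, 210 lost a call, 42 gained one and 5 reversed; the cause was not tested. Precision is limited by 3 arrays per group. The counts below are members of 10 past the adjusted threshold. Fitting only the arrays compared gave 1 in the proximal maxilla (7 otherwise), 0 in the distal mandible (1), 0 and 1 for the genotype difference of the proximal maxilla against the distal maxilla (1) and proximal mandible (3), 1 and 4 between the ends of the control maxilla and mandible (7 each), and 1 each between the control jaws distally (4) and proximally (3). The stricter filter, which removed Krt6b and Krt25, gave 0 in the distal mandible, 0 in proximal against distal maxilla and 2 between the jaws distally, and every probe set as its own feature gave 1 in proximal maxilla against proximal mandible. Array weights gave 1 in the distal maxilla (0) and 3 in proximal against distal maxilla. The replicate number as a block gave 0 in proximal against distal maxilla and 5 in proximal maxilla against proximal mandible, and as a random block with genotype 2 and 5, and 0 in the distal mandible; beyond the calls given in the report, blocks changed those of Krt15 in proximal against distal maxilla (adjusted p = 0.0489), Krt4 in the proximal maxilla (0.0770) and Krt10 between the jaws distally (0.0274 and 0.0130, where numbers did not pair). With the general epithelial mean as a covariate, 0 passed in both of those contrasts, between the ends of the control mandible and between the jaws proximally. With nasal and muscle means, 1 passed in the proximal maxilla, 0 in both contrasts, 1 between the jaws distally and 0 proximally. Without the 3 arrays low in nasal genes, 1 passed in the distal maxilla, 1 in the proximal maxilla and 1 against the proximal mandible. The basal mean and the removal of control proximal maxilla 1 and 2 were chosen after seeing the data. Krt5, Krt14 and Krt15 followed the basal mean over the arrays (r = 0.92, 0.97 and 0.92), so their smaller differences under it were largely built in. The basal mean left 1 in the proximal maxilla, 0 in the distal mandible, 0 and 1 in the contrasts, 0 between the ends of either control jaw and 6 between the jaws proximally; it reversed Krt10 between maxilla ends (−0.060) and Krt1 (−0.54), Krt15 (−0.15) and Krt6a (−0.47) between mandible ends. Removing the 2 controls left 1 in the proximal maxilla, 0 in both contrasts and 0 between maxilla ends, and reversed Krt5 between the jaws proximally (−0.0098). Leaving out 1 array at a time gave 5 to 7 in the proximal maxilla, 0 to 1 in the distal mandible, 0 to 5 and 1 to 6 in the contrasts, 3 to 7 and 2 to 7 between the ends of maxilla and mandible, and 0 to 4 and 0 to 5 between the jaws distally and proximally.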

Other observations

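Among the regulators of keratinocyte differentiation in the proximal maxilla, 6 of 23 were higher in mutants, including Grhl3 (1.39, adjusted p = 0.0460), Cebpa (0.88, adjusted p = 0.0341), Klf4 (0.62, adjusted p = 0.000663) and the Notch ligand Jag1 (0.61, adjusted p = 0.000875), and 3 were lower, Elf5 (−2.57), Sox2 (−1.90) and Pitx1 (−0.95). Over all genes, 12.2% were higher and 11.1% lower in this comparison, so the lower count is near that share. No regulator was called by limma without the 3 mutant maxilla arrays low in nasal genes (3 of 23 at an unadjusted p under 0.05) or without controls 1 and 2 (5 of 23), each of which leaves 1 array in a group. In the control distal mandible compared with the control distal maxilla, the cornification genes Hrnr (−4.85), Sprr1a (−3.90), Dsc1 (−2.31) and Lor (−1.86), which encodes loricrin, were the 4 of 23 suprabasal genes called, all lower. Between these groups the keratin Krt23 was lower by −3.69 (adjusted p = 0.00299) and Krt73 by −2.54 (adjusted p = 0.00405), the 2 of 23 other keratins called by limma. Over all genes 5.73% were called lower in this comparison. The member calls of this comparison were lost without control distal maxilla 1 or 3, and fits without single arrays are not given for these other genes.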
